A study of Mus musculus with 18 samples.

Results

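This is a comparison of control plasma cells with control activated B cells, both sorted from mouse spleen 72 h after an injection of lipopolysaccharide (LPS), a bacterial cell wall component that drives B cells to divide and to become antibody-secreting cells. Its members were chosen by cell type and genotype, and are 6 of the 18 RNA-seq libraries of the series: activated B cells 1, 3 and 4, and plasma cells 1, 3 and 4. All 6 came from control mice (Ctrl) heterozygous for a Cre recombinase allele active in B lineage cells, which the mice of every group carried, with no floxed gene. The mice received 50 µg of LPS in 100 µl through the tail vein, and their age is not given in the sources used here. Live cells lacking F4/80, Cd11b and Thy1.2 were sorted as B220+GL7+ (activated B cells) or as CD138+ cells with intermediate or low B220 (plasma cells), at 1000 cells per library. The other libraries are 6 from the same sorted cell types of G9afl/fl mice with the same Cre allele (KO), 3 from Ctrl naive B cells and 3 from KO naive B cells. The naive cells, from uninfected animals, were enriched by CD43 beads.

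A plasma cell is the end stage of the B lineage. It stops presenting antigen and stops answering through its surface receptor, and instead enlarges its endoplasmic reticulum (ER), where antibody chains are folded, glycosylated and quality-checked before export. The transcription factors Prdm1, Irf4 and Xbp1 drive this change, while Pax5, Bach2 and others hold the B cell state, and the unfolded protein response adjusts the ER to its load through the sensors IRE1, ATF6 and PERK.

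Values are deposited RPKM (reads normalised to gene length and to library depth) scaled between libraries, and are given in the order of libraries 1, 3 and 4 or as mean ± SD over n = 3 libraries per cell type. Changes are plasma minus activated on the log2(scaled RPKM + 1) scale, which understates folds of genes near 1 RPKM, and adjusted p-values are from limma with Benjamini-Hochberg adjustment. A gene was called when its adjusted p was under 0.05. Folds are ratios of the mean scaled RPKM. The table held 12960 genes, of which 10201 reached a mean of 1 RPKM in either cell type and were tested. The depth of a library, estimated from the steps of low values, was 6.69 to 7.71 mega-reads for activated and 5.89 to 6.92 for plasma cells. The median SD of a gene was 0.12 log2 units in activated and 0.13 in plasma cells. Correlations across genes were 0.989 to 0.993 within a cell type and 0.851 to 0.864 between cell types. Activated library 3 stood apart at low levels, with 908 genes at 0 against 40 and 47 in the other activated libraries and 102 to 382 in plasma cells. The median over 57 odorant receptor genes was 0.807, 0 and 1.01 deposited RPKM in activated and 0.459, 0.501 and 0.622 in plasma cells, so values near 1 RPKM lie at the level of genes with no known role in B cells.

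RNA of Sdc1 and Ptprc followed the gates of the sort, while that of Itgam in activated cells did not. Sdc1, which encodes CD138, measured 1.25, 1.25 and 0.721 in activated and 159, 184 and 160 in plasma cells, and Ptprc, whose product carries the B220 epitope, 159, 156 and 175 against 105, 97.3 and 125. These genes chose the cells and are a check of the labels only. Itgam, which encodes the excluded Cd11b, was at 20.4, 15.2 and 14.8 RPKM in activated cells and under 1 in each plasma cell library. All 14 plasma cell markers, which include Sdc1 itself, were higher and all 14 activated B cell markers lower in plasma cells. These lists share members with the programmes described below. They were also chosen with earlier results of these data known, so they are no independent check. Among markers of other cells, the 5 T cell markers in the table summed to 118 to 149 RPKM in activated and 19.8 to 28 in plasma cells, nearly all of it from Cd2, which mouse B cells also make, at 124 ± 16.1 and 20.5 ± 3.72. Cd3e stayed at or under 0.191 in all 6 libraries. The 11 macrophage and monocyte markers summed to 31.5 to 36.8 and 18.6 to 34.9, of which Itgam made up a large part in activated cells. Lyz2, the macrophage lysozyme, was at 2.21, 0.448 and 1.94 against 4.94, 3.35 and 10.3, and C1qb, a complement subunit, at 0.129, 0 and 0 against 0.289, 0.953 and 3.6, highest in plasma cell library 4. In the fit of all 18 libraries neither was called (adjusted p = 0.173 and 0.095). The 8 dendritic cell markers summed to 71.6 to 80.1 and 169 to 208, carried in plasma cells by Bst2. The share of other cells in these values was not tested.

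Between activated and plasma cells 3124 genes were higher (30.6% of those tested) and 3393 lower (33.3%), so a call by itself was common. The counts of every gene list below are to be read against these shares. With at least a 2-fold change on the log2 scale, 1129 were higher (11.1%) and 1097 lower (10.8%). Large losses outnumbered large gains: 128 genes were lower and 57 higher by 3 log2 units or more, and 18 against 5 by 5 units or more. Odorant receptor medians, given above, were higher in activated libraries 1 and 4 than in plasma cells. How far that floor sets these counts was not tested. All plasma cell libraries lay above all activated ones for 32.7% of genes and below them for 35.8%. The median change over all tested genes was -0.03. The balance of directions rests on the scaling. On the RPKM as deposited 2330 genes were higher and 4586 lower, with the median shifted by -0.19, so that 33.7% of calls were higher instead of 47.9%. Whether the libraries of a cell type came from separate mice is not in the labels, and the p-values therefore measure the spread between libraries, which may be technical. In bulk RNA, fewer cells of a kind and less RNA per cell cannot be told apart.

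Plasma cells gained the known drivers of antibody secretion. Among those of 20 RPKM or more the largest gains were those of Creb3l2, Ell2 and Bhlha15. Of 19 tested transcription factors of the plasma cell list, 13 were higher and 4 lower, with a median change of 1.14. Prdm1, the repressor that ends the B cell programme (chromosome 10, 44437177 to 44528501, GRCm38), was at 32.5, 34.9 and 24.9 RPKM in activated and 106, 100 and 95.9 in plasma cells, a 3.27-fold gain (1.69 on the log2 scale, SE 0.11, adjusted p = 7.7e-08). Its RNA was therefore already present in every activated library. Irf4, which cooperates with it, was at 42.1, 47.0 and 40.9 against 183, 163 and 190 (4.12-fold, adjusted p = 1.4e-09).

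Creb3l2, an ER membrane transcription factor released by proteolysis (chromosome 6, 37327255 to 37442146), rose more, from 12.1, 10.8 and 9.2 to 111, 105 and 112 RPKM (10.2-fold, log2 3.24, SE 0.1, adjusted p = 1.1e-10). Bhlha15, known as MIST1, which builds secretory cell architecture, rose 7.03-fold from 28.3, 28.5 and 34.1 to 206, 207 and 226. Xbp1 rose 5.92-fold, from 391, 391 and 409 to 2217, 2579 and 2250, and was among the 25 most abundant plasma cell RNAs of the table. For none of these 3 genes did the libraries of the cell types overlap. Pou2af1, the octamer co-activator of immunoglobulin genes, rose 2.53-fold from 375 ± 30.9 to 950 ± 81.5, and Tcf12, an E protein, 2.4-fold. Against these, Tcf3, the other E protein gene of wide use in B cells, was at 89 ± 5.37 and 92.8 ± 7.69 (change 0.06, adjusted p = 0.568), and Ikzf3, which encodes Aiolos, at 52.9 ± 4.23 and 52.1 ± 2.79 (-0.02, adjusted p = 0.855). Zbtb20, a zinc finger factor linked to long-lived plasma cells, was at 5.43, 5.64 and 6.13 against 6.19, 6.76 and 5.75 (0.10, adjusted p = 0.475, and -0.08 on the RPKM as deposited). For these 3 genes the libraries of the cell types overlapped, and as deposited Tcf3 was at -0.16 with no call and Ikzf3 was called lower (-0.23, adjusted p = 0.031). Tbx21 (T-bet) and Id2 moved against the rest of the list, Tbx21 from 43.7, 34.9 and 27.4 to 0.18, 0.661 and 0.428, and Id2 from 27.1 ± 2.61 to 3.93 ± 0.997.

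**Figure D1:**
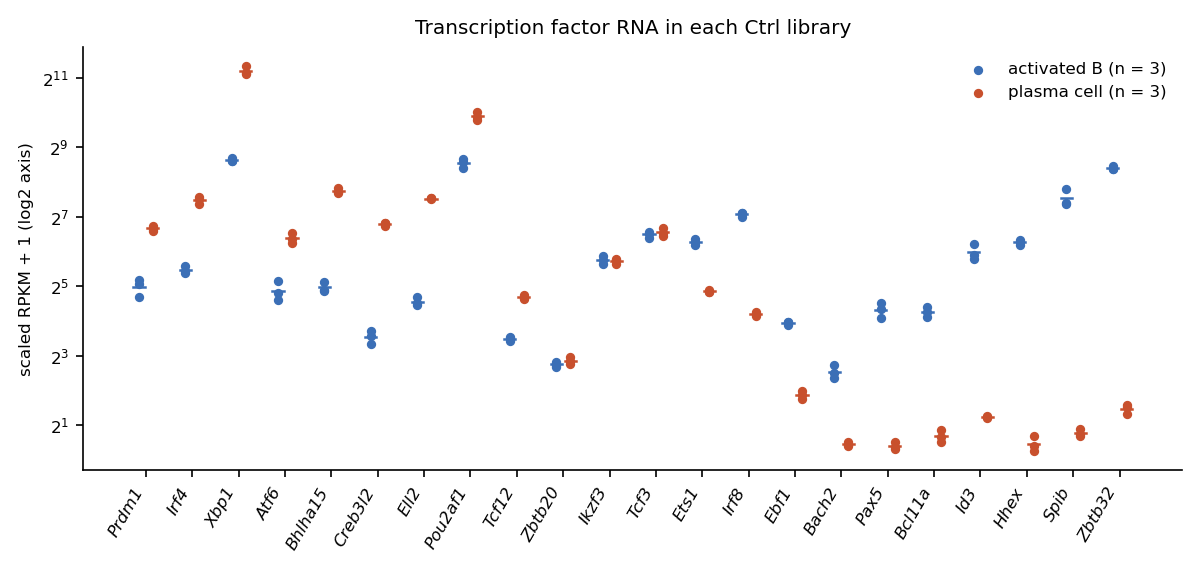
Scaled RPKM + 1 on a log2 axis for 22 transcription factor genes in each Ctrl library; points are libraries, short lines the mean of 3. Prdm1 through Tcf12 lie higher in plasma cells, Zbtb20, Ikzf3 and Tcf3 overlap, and genes from Pax5 to Spib lie below 2 RPKM in plasma cells.

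The factors that hold B cell identity were lost to very different depths. Of 35 tested, 27 were lower and 3 higher, with a median of -1.18. Pax5, which maintains the B lineage (chromosome 4, 44524757 to 44710487), fell from 21.8, 19.4 and 15.9 RPKM to 0.254, 0.419 and 0.301 (log2 change -3.91, SE 0.15, adjusted p = 4.8e-10). Hhex, a homeobox repressor needed for memory B cells (chromosome 19, 37434810 to 37440731), fell from 80.1, 71.5 and 76.3 to 0.607, 0.19 and 0.308 (206-fold, log2 -5.82). Hhex started higher than Pax5 and ended at a similar level. Plasma cell values of both lay near or under the odorant receptor medians, so the size of each loss is uncertain. Id3, which restrains E proteins, fell 46.2-fold from 54.3, 58.3 and 74.1 to 1.29, 1.42 and 1.34, while the E protein genes Tcf12 and Tcf4 changed by 1.19 and 0.32. As deposited Tcf4 was not called (0.12, adjusted p = 0.295). Bcl11a fell from 18.3 ± 1.89 to 0.61 ± 0.197, and Zeb2 from 11.8 ± 0.211 to 0.235 ± 0.0216. Bach2, the repressor of Prdm1, was only at 4.69, 4.16 and 5.64 in activated cells and fell to 0.442, 0.357 and 0.314. Irf8, by contrast, kept 18.2, 17.3 and 16.7 RPKM in plasma cells against 137, 126 and 136 (7.66-fold lower).

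The secretory pathway rose almost as a whole. The 7 lists of ER and Golgi machinery (antibody assembly helpers, the IRE1 and XBP1 branch, the ATF6 branch, translocation, N-glycosylation, ER to Golgi transport, and ER-associated degradation) held 171 genes of the table, of which 169 were tested. Of these 162 were higher, 0 lower and 7 neither, and 138 were higher by 2-fold or more, against a background of 30.6% higher. The median change was 1.71, with a range of -0.23 to 4.2, against -0.03 for all tested genes. Their share of all RPKM in the table was 4.78%, 4.79% and 4.65% in activated libraries and 16.4%, 16.5% and 17.1% in plasma cell libraries. Jchain, which joins antibody units and had the highest plasma cell RPKM in the table, is counted in that share. No antibody heavy or light chain gene was among the 25 most abundant plasma cell RNAs of the table. The share and the ranking therefore describe the RPKM of the table and not all plasma cell RNA. On the RPKM as deposited 156 were higher and 2 lower.

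**Figure D2:**
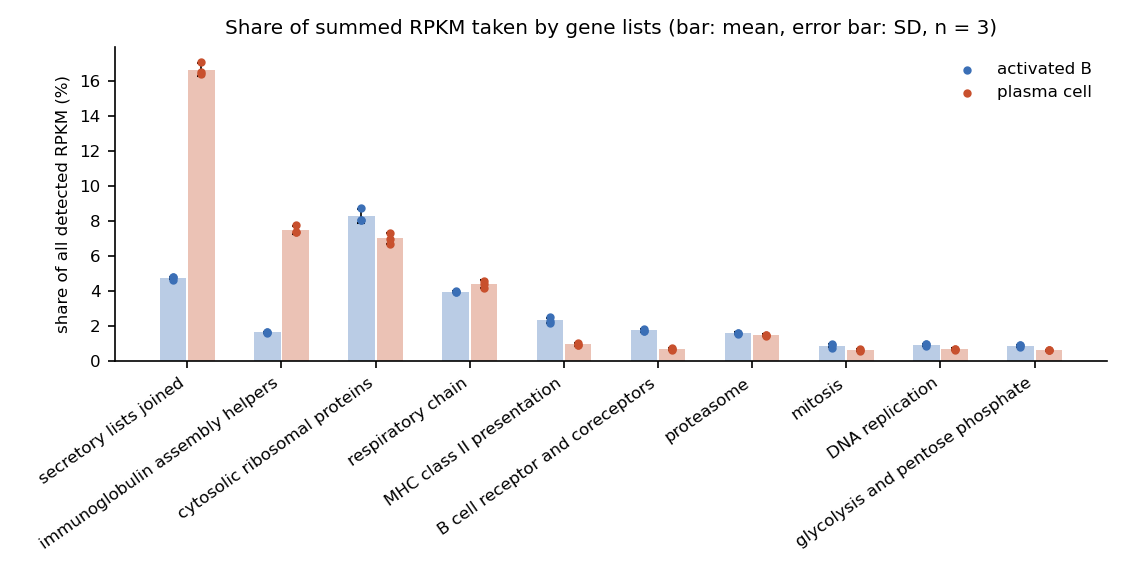
Percent of all detected RPKM taken by 10 gene lists; bars are means, error bars the SD over 3 libraries, points the libraries. The joined secretory lists go from 4.74% to 16.7%, and ribosomal protein genes from 8.28% to 7.0%.

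Within the pathway, some related genes rose by unequal amounts. At the membrane channel, Sec61a1, the pore subunit, rose 4.4-fold to 636 ± 12.2, while its paralog Sec61a2 was at 8.47, 6.43 and 6.89 against 6.14, 5.79 and 6.03 (-0.23, adjusted p = 0.124, and -0.42 with adjusted p = 0.011 as deposited). Tram2, a translocation helper known for collagen export, rose 8.59-fold from 7.86 ± 0.708 to 67.5 ± 5.55. Of 26 tested translocation genes 25 were higher, with a median of 1.89. In N-glycosylation 33 of 38 were higher and 0 lower. The catalytic subunit Stt3a, which acts on chains as they enter the ER, rose 3.94-fold from 201, 206 and 184 to 785, 769 and 776. Its paralog Stt3b, which acts later, rose 1.31-fold from 136, 131 and 130 to 181, 154 and 185 (log2 0.39, but 0.17 with adjusted p = 0.088 as deposited). Of the 5 neither higher nor lower, Mpdu1, Alg10b, Alg13 and Tusc3 were at changes of -0.23 to 0.13, and Tusc3 was called lower as deposited (-0.42, adjusted p = 0.011).

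In ER to Golgi transport 45 of 46 were higher. The 4 cargo-binding Sec24 genes of the COPII coat differed widely: Sec24d rose 8.64-fold from 26.7, 29.2 and 25 to 230, 230 and 239, and Sec24a 7.41-fold from 4.05 ± 0.108 to 30 ± 1.01. Sec24c rose 1.93-fold, and Sec24b was at 15.9, 16.2 and 15.9 against 17.1, 13.9 and 17.8 (0.02, adjusted p = 0.911), the only member not called. The KDEL receptors, which return escaped chaperones to the ER, all rose: Kdelr3 19.9-fold from 1.36, 1.34 and 0.868 to 23.2, 24.5 and 23.4, Kdelr1 5.09-fold and Kdelr2 4.75-fold. Kdelr2 was still the most abundant per length, at 329 ± 11.7 RPKM in plasma cells. Lman1, the cargo receptor for glycoproteins, rose 6.83-fold.

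All 28 genes of ER-associated degradation were higher, with a median of 1.58. The mannosidase-like factors that mark misfolded glycoproteins rose by similar amounts, Edem1 from 118 ± 3.94 to 916 ± 51.3 (7.76-fold), Edem2 from 64.8 ± 4.74 to 556 ± 33.4 (8.57-fold) and Edem3 from 7.56 ± 0.711 to 63.3 ± 8.03 (8.37-fold). Of the Derlin channel genes, Derl3 rose 6.36-fold from 135, 145 and 132 to 865, 863 and 894, Derl1 3.86-fold and Derl2 2.31-fold. Vcp, the extracting ATPase, changed by 1.06 and Rnf139, a ubiquitin ligase of the ER membrane, by 0.25. Rnf139 was not called as deposited (0.04, adjusted p = 0.706), nor without activated library 1 (0.21, adjusted p = 0.119), activated library 3 (0.26, adjusted p = 0.053), plasma cell library 1 (0.24, adjusted p = 0.087) or plasma cell library 3 (0.23, adjusted p = 0.061).

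The 3 branches of the unfolded protein response did not move alike. All 20 genes of the IRE1 and XBP1 branch and all 17 tested of the ATF6 branch were higher, with medians of 2.22 and 1.95. Ern1, which encodes IRE1, rose 9.81-fold from 2.52, 2.6 and 2.11 to 22.6, 21.5 and 26.9. In the PERK and ATF4 branch 9 of 14 were higher and 4 lower, with a median of 0.51. Atf4 itself rose 2.03-fold (83.2, 88.6 and 89.7 against 170, 183 and 178), as did its targets Asns (2.6-fold) and Chac1 (5.28-fold). Ddit3, which encodes the death-linked factor CHOP, was at 17.3, 21.5 and 21.4 against 26.1, 27.3 and 29.6, a 1.38-fold gain (log2 0.45, adjusted p = 0.002, and 0.24 with adjusted p = 0.058 as deposited). Atf3 fell from 4.45, 5.49 and 4.72 to 0.134, 0 and 0.796, and Ppp1r15a, the inducible subunit that ends PERK signalling, fell 1.73-fold from 45.4 ± 1.31 to 26.3 ± 4.2. Its constitutive relative Ppp1r15b rose 1.51-fold. Many genes of the IRE1 and ATF6 lists are known by their induction under ER load, and the lists here were made with earlier results of these data known, so their direction is no independent evidence.

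Promoter sequences of members are shown because motifs for these factors lie in them. They are RefSeq sequences of GRCm38.p6, 5′ to 3′ on the gene's strand, covering 250 bases before an annotated start. Capitals mark the motif match on either strand. The ER stress response element (ERSE), CCAAT and CCACG with 9 bases of any kind between them, is bound by ATF6 with the factor NF-Y and has these matches in 4 chaperone, folding and degradation genes.
Hspa5 (chr2:34771840-34772089, forward strand): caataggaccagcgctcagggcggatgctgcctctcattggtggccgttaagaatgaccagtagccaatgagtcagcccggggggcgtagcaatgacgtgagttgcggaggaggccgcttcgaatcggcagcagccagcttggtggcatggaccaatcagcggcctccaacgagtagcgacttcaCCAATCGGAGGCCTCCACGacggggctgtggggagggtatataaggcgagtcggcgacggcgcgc
Hsp90b1 (chr10:86705445-86705694, reverse strand): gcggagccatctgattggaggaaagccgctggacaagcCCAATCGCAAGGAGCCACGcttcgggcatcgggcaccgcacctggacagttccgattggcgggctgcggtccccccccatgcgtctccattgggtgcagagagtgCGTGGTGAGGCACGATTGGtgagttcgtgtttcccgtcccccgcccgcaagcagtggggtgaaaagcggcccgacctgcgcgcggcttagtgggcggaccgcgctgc
Creld2 (chr15:88819396-88819645, forward strand): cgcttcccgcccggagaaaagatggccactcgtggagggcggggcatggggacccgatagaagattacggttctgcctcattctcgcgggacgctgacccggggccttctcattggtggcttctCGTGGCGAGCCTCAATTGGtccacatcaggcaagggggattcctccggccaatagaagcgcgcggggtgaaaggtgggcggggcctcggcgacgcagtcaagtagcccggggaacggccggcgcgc
Derl3 (chr10:75893148-75893397, forward strand): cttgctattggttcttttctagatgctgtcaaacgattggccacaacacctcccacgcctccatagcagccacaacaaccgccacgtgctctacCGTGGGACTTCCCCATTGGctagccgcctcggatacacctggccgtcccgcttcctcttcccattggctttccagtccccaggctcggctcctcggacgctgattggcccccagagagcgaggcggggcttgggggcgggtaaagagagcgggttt
A shorter core of the element bound by XBP1 and ATF6, TGACGTGG, is marked in a folding enzyme and a coat gene.
Txndc5 (chr13:38527915-38528164, reverse strand): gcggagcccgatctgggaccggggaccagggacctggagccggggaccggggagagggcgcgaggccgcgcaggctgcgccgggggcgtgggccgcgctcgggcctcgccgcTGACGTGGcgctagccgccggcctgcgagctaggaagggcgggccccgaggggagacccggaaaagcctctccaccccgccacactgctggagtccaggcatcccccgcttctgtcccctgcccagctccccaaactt
Sec24d (chr3:123267246-123267495, forward strand): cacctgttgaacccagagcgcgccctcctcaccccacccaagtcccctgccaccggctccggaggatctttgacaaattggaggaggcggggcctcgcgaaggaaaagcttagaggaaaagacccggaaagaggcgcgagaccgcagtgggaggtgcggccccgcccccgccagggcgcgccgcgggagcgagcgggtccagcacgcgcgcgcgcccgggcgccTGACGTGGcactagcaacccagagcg

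The search window ran from 250 bases before to 50 after each listed start, 300 bases in all, on both strands, and 8263 of the 10201 tested genes had a promoter in the table. The ER stress response element was found in 19 of them, 0.23%. Of those 19 genes 11 were higher, 2 lower and 6 neither. The 11 that belonged to the secretory lists were the 11 that were higher: Alg12, Calr, Canx, Creld2, Derl3, Dnajc3, Ero1lb, Hsp90b1, Hspa5, Pdia6 and Syvn1. That is 11 of the 137 secretory genes with a promoter (8.03%), and 8 of 14 in the ATF6 branch (57.1%), whose genes are known partly by this element. The TGACGTGG core was in 95 genes (1.15%), of which 57 were higher, 18 lower and 20 neither. It was in 2.25% of all genes called higher and 0.657% of those called lower. Its 9 secretory genes were Copb1, Copb2, Kdelr3, Sec23a, Sec24d, Stx5a, Txndc5, Ube2j1 and Vcp, 9 of 137 (6.57%), and all were higher. The motifs share the letters CGTGG on opposite strands. A match describes letters and shows no binding.

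Beside the chaperones, antibody messages depend on elongation factors that favour the secreted form. Ell2, which drives processing at the secretory poly(A) site, rose 8.17-fold from 20.9, 24.8 and 21.7 to 185, 181 and 184. Its partner Eaf2 rose 12.6-fold from 18.1, 21.5 and 17.6 to 226, 260 and 234, while the related Eaf1 changed by 0.24 and was not called, though without plasma cell library 3 it was (0.36, adjusted p = 0.012). Hnrnpll, a splicing regulator of plasma cells, rose from 0.938, 0.0953 and 0.848 to 11.4, 7.36 and 11.4. Of the 19 genes of this list 7 were higher and 8 lower, with a median of -0.2. These shares lie near the 30.6% higher and 33.3% lower of all tested genes, so the list as a whole did not stand out. In the fit of all 18 libraries 7 were higher and 4 lower. The other 4 that rose were elongation factor genes with smaller changes, Nelfa by 0.77, Supt5 by 0.61, Aff1 by 0.45 and Aff4 by 0.38. As deposited Aff1 and Aff4 were not called (adjusted p = 0.082 and 0.157), nor was Aff4 without activated library 1 (0.33, adjusted p = 0.053). Cdk9, the kinase of the elongation factor P-TEFb, changed by -0.83, and the cleavage genes Cpsf2 and Cstf1 by -0.58 and -0.47.

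The surface of the plasma cells was rebuilt with some of the largest gains in the table. Of 24 tested surface genes of plasma cells 19 were higher and 2 lower. Tnfrsf17, which encodes the survival receptor BCMA, rose from 1.01, 0.146 and 0.168 to 103, 135 and 114 (log2 6.4, SE 0.2, adjusted p = 1.1e-10), the largest ratio of means, 265-fold, among genes of 20 RPKM or more that were above 0 in both cell types. Tigit, an inhibitory receptor best known on T and natural killer cells (chromosome 16, 43648867 to 43664146), rose from 0.998, 1.11 and 2.41 to 71.8, 75.4 and 85 (51.5-fold, log2 5.01, SE 0.18, adjusted p = 3.2e-10). Epcam, an epithelial adhesion molecule, rose 35.4-fold from 2.0, 2.07 and 4.04 to 90.1, 107 and 90.2. Cd28, the T cell co-stimulator that supports plasma cell survival, rose from 0.322, 0.159 and 0.48 to 12.3, 13.2 and 14.2. Cd3e was not above 0.118 in any plasma cell library, but only 5 of the 13 T cell markers are in the table. The share of T cells in the Cd28 value was not tested. Slamf7 rose 7.38-fold, and Ly6c2 23.5-fold, from 14 ± 2.54 to 330 ± 70. Ly6c2 and Ly6c1 are near-identical copies, so their division of reads is uncertain. Cd38 and Fcrl5 went against the list: Cd38, an ectoenzyme, fell 11.5-fold from 192, 176 and 192 to 14.8, 19.2 and 14.7, and Fcrl5 20-fold.

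Other genes with the largest gains lie outside these programmes. Slpi, a secreted inhibitor of leukocyte proteases (chromosome 2, 164354070 to 164389095), had the largest fitted log2 change among genes of 20 RPKM or more, from 3.0, 1.34 and 1.74 to 236, 434 and 168 (log2 6.46, SE 0.28, adjusted p = 1.9e-09), with plasma cell library 3 the highest. Rgcc, a regulator of the cell cycle named for its response to complement, rose 38.2-fold from 8.48 ± 1.53 to 324 ± 38.1. Trp53inp1, a p53-induced gene that also acts in autophagy, rose 15.7-fold from 17.5, 17.0 and 18.7 to 270, 292 and 272. Trp53 itself fell 2.03-fold from 64.6 ± 6.44 to 31.9 ± 1.91. Of 22 tested p53 targets 11 were lower and 4 higher, against 33.3% and 30.6% of all tested genes. Gpr160, an orphan receptor, went from 0.505, 0.566 and 0.752 to 38.5, 45.4 and 42.7.

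A switch between under 1 RPKM in each library of a cell type and at least 10 in each library of the other was rare and went mostly in the direction of loss. It was seen for 9 genes gained (0.0882% of those tested): Gpr160, 9430069I07Rik, Pls1, Cacna1h, Lrrn3, Wipi1, Cd28, Tmem150a and Rhpn2. For 30 genes (0.294%) the RNA was under 1 RPKM in every plasma cell library. These included Pax5, Spib, Hhex, Bcl11a and Zeb2 among factors, Ccr7, Il27ra and Ackr2 among receptors, and Ciita and H2-Oa of antigen presentation. The cytokine gene Lta was at 20.6, 20.5 and 16.6 in activated cells and listed at 0 in all 3 plasma cell libraries. The limit of 1 RPKM was not equally strict for both cell types. Odorant receptor medians as deposited were 0.807, 0 and 1.01 in activated and 0.459, 0.501 and 0.622 in plasma cells. Tnfrsf17 rose to 103, 135 and 114 but was at 1.01 in activated library 1, so it is not among the 9. How far this floor sets the balance of gains and losses was not tested.

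**Figure D3:**
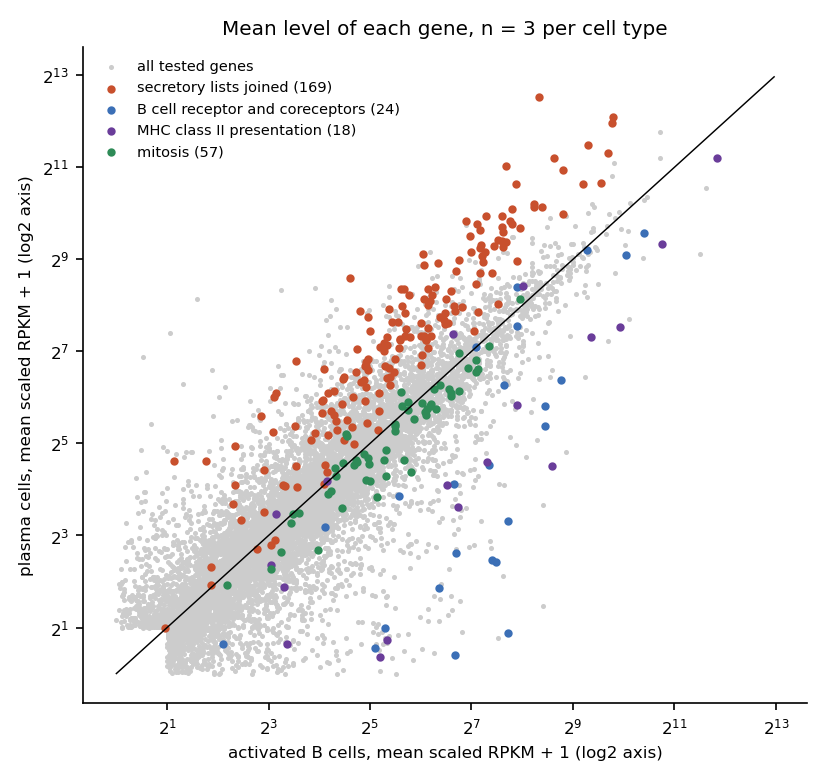
Mean scaled RPKM + 1 of each tested gene in activated (x) and plasma cells (y), both log2 axes, n = 3 each; the line marks equal levels. The 169 secretory genes lie mostly above it, B cell receptor and MHC class II genes mostly below, and mitosis genes near or just below it.

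Antigen presentation genes fell, and their co-activator most. Of 18 tested MHC class II genes 14 were lower and 3 higher, with a median of -2.05. Ciita, the master co-activator of the class II genes (chromosome 16, 10480059 to 10528418), fell 122-fold from 37.5, 32.4 and 37.3 to 0.205, 0.242 and 0.428 (log2 -4.83, SE 0.13, adjusted p = 4.7e-11). Its plasma cell values lay under the odorant receptor medians, so this fold is uncertain. The genes that Ciita activates fell less. H2-Aa, a class II chain, was at 949, 921 and 1055 against 184, 208 and 165 (5.26-fold lower), and Cd74, the invariant chain, fell 1.57-fold and was still at 2345 ± 267 RPKM. H2-Oa, of a regulator of peptide loading, and H2-DMb2, of the loading factor itself, fell 60.8-fold and 17.5-fold. Of the DNA-binding complex that Ciita joins, Rfx5 fell 3.32-fold, whereas Rfxap was at 16.8 ± 1.68 and 17.1 ± 0.993 (adjusted p = 0.867). Proteases that cut antigen and the invariant chain rose, Lgmn 1.67-fold and Ctss 1.32-fold (log2 0.4, but 0.19 with adjusted p = 0.081 as deposited). Of the class I molecule, B2m, the light chain, rose 2.08-fold from 1605, 1571 and 1870 to 3313, 3774 and 3408, and H2-D1, a heavy chain, 2.07-fold; both were named after values were seen, and no class I list was tested.

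The Y box of class II promoters, CTGATTGG, is bound by NF-Y within the module on which Ciita assembles. It is shown for a chain, H2-Aa, and for a regulator of peptide loading, H2-Oa.
H2-Aa (chr17:34287824-34288073, reverse strand): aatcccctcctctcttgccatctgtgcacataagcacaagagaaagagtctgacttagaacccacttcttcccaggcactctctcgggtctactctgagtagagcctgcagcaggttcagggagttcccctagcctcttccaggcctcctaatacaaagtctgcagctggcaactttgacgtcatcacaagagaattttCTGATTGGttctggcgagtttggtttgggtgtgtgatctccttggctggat
H2-Oa (chr17:34092129-34092378, forward strand): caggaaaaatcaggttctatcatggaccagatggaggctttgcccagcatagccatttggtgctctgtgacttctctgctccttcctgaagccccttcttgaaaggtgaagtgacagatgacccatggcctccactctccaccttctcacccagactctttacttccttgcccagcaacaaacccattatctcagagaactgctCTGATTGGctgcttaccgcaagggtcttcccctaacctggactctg
It was found in 4 of the 14 class II genes with a promoter (28.6%: H2-Aa, H2-Eb1, H2-Eb2 and H2-Oa) and in 7.24% of all tested genes. It shares the letters ATTGG with the reverse strand of the ER stress response element, and it was in 21 of the 137 secretory genes (15.3%), so the letters alone stood before genes that moved in both directions.

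The B cell receptor complex was taken apart unevenly. Of 24 tested receptor and co-receptor genes 21 were lower and 1 higher, with a median of -2.58. The signalling chains Cd79a and Cd79b stayed abundant, Cd79a at 1285, 1320 and 1471 against 722, 867 and 679 (1.8-fold lower) and Cd79b 1.93-fold lower. Cd81, a tetraspanin of the co-receptor complex, rose 1.41-fold. Siglecg and Cd72, inhibitory co-receptors, changed by -5.05 and -4.96. Fcrla was at 119, 136 and 154 against 140, 144 and 120 (-0.01, adjusted p = 0.946, but called lower after quantile normalization at -0.23, adjusted p = 0.045). Downstream, 25 of 36 signalling genes were lower and 4 higher. Ptpn6, the phosphatase SHP-1 that inhibitory co-receptors recruit, fell 9.57-fold from 313, 313 and 310 to 37.4, 30.7 and 29.7, while the adaptor Blnk rose 1.22-fold from 304 ± 9.56 to 370 ± 14.5. Blnk was not called as deposited (0.07, adjusted p = 0.401) or after quantile normalization (-0.02, adjusted p = 0.737), and as deposited none of the 36 was called higher.

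Of 26 tested genes of Toll-like receptor sensing 9 were higher, a share near the 30.6% of all tested genes, and 14 lower. Tlr4, the LPS receptor, was at 3.53, 4.14 and 3.4 against 4.79, 5.28 and 3.85 (0.26, adjusted p = 0.131, but 0.40 with adjusted p = 0.035 after quantile normalization), and its co-receptor Ly96 rose 2.86-fold from 19.6, 24.1 and 25.3 to 61.2, 73.7 and 63. The adaptors Tirap and Ticam1 rose 2.93-fold and 1.77-fold. Tlr1, a lipopeptide receptor, fell 58.4-fold from 50, 44 and 43.6 to 0.503, 0.663 and 1.19. Cd180 and its partner Ly86, relatives of the Tlr4 complex, fell 2.01-fold and 8.63-fold. Among 19 NF-kB subunits and inhibitors 13 were lower and 4 higher, against 33.3% and 30.6% of all tested genes. Nfkb1 fell 5.42-fold from 16.7 ± 3.26 to 3.08 ± 0.61. Rela was at 56 ± 3.34 and 52.2 ± 3.46 (-0.1, adjusted p = 0.310, and -0.31 with adjusted p = 0.006 as deposited). Cd40, the receptor for T cell help, fell 30.9-fold from 81.9, 69.9 and 92.2 to 2.6, 3.06 and 2.23, and Ltb, a membrane cytokine, 55.3-fold.

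Of 35 chemokine, adhesion and egress genes 10 were higher, near the 30.6% of all tested genes, and 23 lower, above the 33.3%. The lymph node homing receptor gene Ccr7 fell 143-fold and Klf2, a regulator of lymphocyte homing, 22.2-fold. Cxcr4, the receptor that guides plasma cells to bone marrow, rose 2.87-fold from 7.46, 11.1 and 16.4 to 26.3, 34.9 and 39.4. Itga4, a subunit of VLA-4, rose 3.41-fold, but both of its possible partners fell, Itgb1 4.18-fold from 148, 149 and 121 to 36.1, 28.9 and 34.8 and Itgb7 7.81-fold. Among 38 cytokine receptor and signalling genes 13 were higher and 20 lower, the higher share again near that of all genes. Il6st, the shared chain for interleukin 6, rose 3.91-fold from 7.1 ± 0.689 to 27.7 ± 2.24, while Il6ra was at 5.36 ± 1.19 and 4.93 ± 1.06 (-0.1, adjusted p = 0.628). The feedback inhibitors split: Socs2 rose 21.1-fold to 8.06 ± 1.33 and Socs3 fell 5.17-fold to 3.78 ± 1.95.

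Plasma cells at 72 h still carried the RNA of cell division, with a modest shift to lower levels. Of 57 tested mitosis genes 3 were higher, 29 lower and 25 neither, at a median of -0.27. Of all tested genes 30.6% were higher and 33.3% lower. The mean share of mitosis genes in all RPKM of the table went from 0.865% to 0.623%. Mki67, the proliferation marker, rose 1.44-fold from 43.5, 46.7 and 52.4 to 69.6, 63.9 and 72 (0.52, adjusted p = 0.00028), and Foxm1, the G2 and M phase factor, 1.64-fold, though in the fit of all 18 libraries Foxm1 was not called (adjusted p = 0.231). Cdk1 was at 53.4, 60.7 and 44.6 against 60.3, 59.1 and 57, and Ccna2 at 169, 186 and 131 against 146, 130 and 137, neither of them called. Without activated library 4 Ccna2 was called lower (-0.37, adjusted p = 0.003), and without activated library 3 Cdk1 was called higher (0.26, adjusted p = 0.045) and 6 mitosis genes in all were. The losses of 2-fold or more included Mybl2 (2.78-fold, from 55.4 ± 5.93 to 19.9 ± 2.29) and Kif23 (2.58-fold). In DNA replication 9 of 48 were higher and 26 lower, and the mean share of RPKM went from 0.914% to 0.668%. Rrm2, the limiting subunit of nucleotide reduction, rose 1.46-fold from 289, 305 and 275 to 420, 430 and 418 (not called in the fit of all 18 libraries, adjusted p = 0.269), whereas Uhrf1, which maintains DNA methylation, fell 2.74-fold. On the RPKM as deposited 45 mitosis and 34 replication genes were lower, and in the fit of all 18 libraries 11 and 16.

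Genes of growth control changed as well. Myc fell 3.06-fold from 29.7, 31.5 and 31 to 8.74, 10.4 and 11.1, and its partner Max from 12.4, 9.86 and 24.9 to 2.28, 4.28 and 5.48. The antagonists that compete for Max rose: Mxd4 2.89-fold from 17.5, 18.5 and 28.6 to 61, 70.4 and 55.1, Mxi1 3.27-fold and Mxd1 2.5-fold. Of 48 Myc network and ribosome biogenesis genes 28 were lower and 7 higher, against 33.3% and 30.6% of all tested genes. Npm1, a nucleolar chaperone, fell 2.74-fold, but Gnl3, which encodes nucleostemin, rose 2.67-fold from 43.2, 45.4 and 36.8 to 102, 124 and 109. The 77 ribosomal protein genes had a median change of -0.09 with 8 higher and 21 lower, against 2 higher and 54 lower as deposited and 2 and 68 after quantile normalization. Leaving out single libraries gave 3 higher without activated library 1, 4 without activated library 3, and 13, 10 and 13 lower without activated library 4, plasma cell library 1 and plasma cell library 4. Their many pseudogenes make single values uncertain.

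Survival genes of the Bcl2 family exchanged members. Bcl2 fell 6.13-fold from 13.1, 13.2 and 12.7 to 1.93, 1.83 and 2.61, and Bcl2a1b and Bcl2a1d, near-identical copies whose reads may be divided uncertainly, fell 16-fold and 21.4-fold. Bcl2l1, which encodes the protective Bcl-xL, rose 3.77-fold from 9.06, 7.39 and 9.28 to 31.5, 33 and 32.6. Mcl1, on which plasma cell survival is known to depend, rose 1.75-fold from 201, 231 and 239 to 369, 405 and 403. The death-promoting Bcl2l11, known as BIM, rose more than either, 5.73-fold from 11.1, 9.91 and 9.29 to 55.9, 57.2 and 60.5, while Bid fell 2.97-fold. In none of these genes did the libraries of the cell types overlap.

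**Figure D4:**
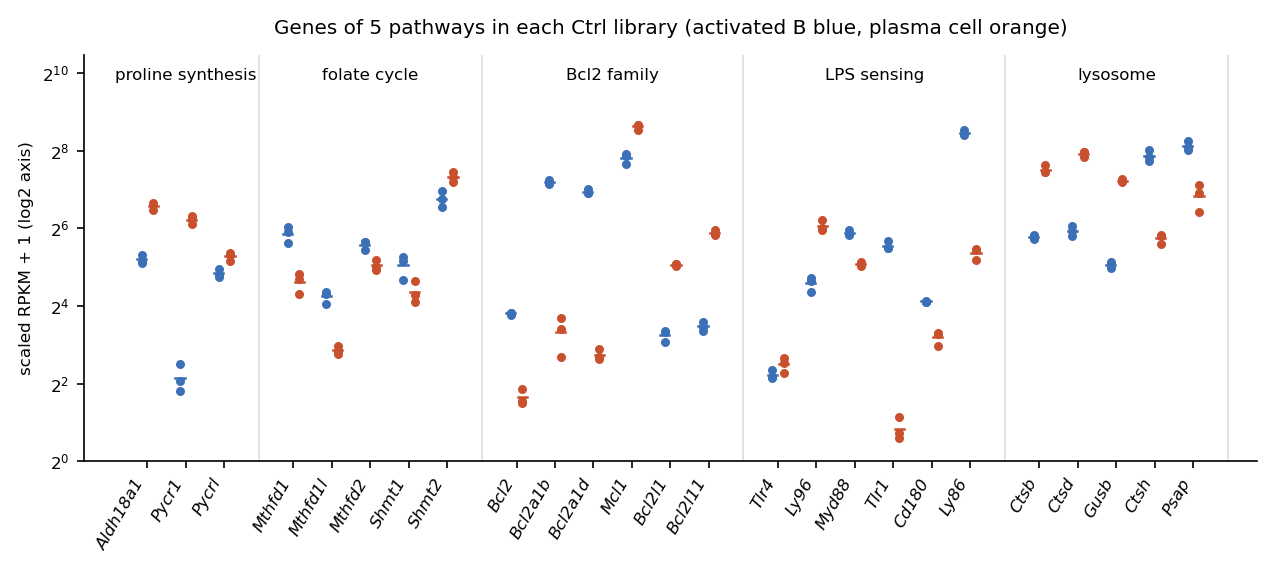
Scaled RPKM + 1 on a log2 axis in each Ctrl library (activated blue, plasma cell orange, lines the mean of 3) for genes of 5 groups, chosen after values were seen. Bcl2 falls while Bcl2l1 and Bcl2l11 rise, and Pycr1 rises while Mthfd1l falls.

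Of 21 tested genes of amino acid and one-carbon synthesis 14 were higher and 5 lower, or 9 and 4 in the fit of all 18 libraries. Pycr1, which makes proline in mitochondria (chromosome 11, 120635712 to 120643769), went from 2.48, 3.15 and 4.69 to 67.5, 78.6 and 74.1 (21.3-fold, log2 4.09, SE 0.15, adjusted p = 5.4e-10) and Aldh18a1, the first enzyme of the path, rose 2.65-fold. Of the folate cycle, Mthfd1l fell 2.86-fold from 17.9 ± 2.06 to 6.26 ± 0.475 and Mthfd1 2.42-fold, and Shmt2 rose 1.48-fold. Of 23 aminoacyl-tRNA synthetase genes and their partners 16 were higher and 1, Farsb, lower. The largest were Yars (tyrosine), 3.72-fold from 50.2, 53.5 and 45.3 to 183, 187 and 185, and Nars (asparagine), 3.25-fold. The large amino acid carrier Slc3a2 with Slc7a5 rose 3.64-fold and 2.61-fold. The composite element TGATGCAA, bound by ATF4 with C/EBP factors, was in the window of 4 of the 16 synthetase genes with a promoter (25%) and in 0.799% of all tested genes.

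Energy and lipid genes divided as well. Most glycolysis genes fell, 17 of 30, among them Ldha 1.72-fold from 625, 639 and 534 to 367, 341 and 338, but the entry enzyme Hk2 rose 6.59-fold from 2.44, 1.93 and 2.99 to 13.9, 13.2 and 21.4. Of 75 respiratory chain genes 43 were higher and 5 lower at a median of 0.3, but as deposited 27 were higher and 10 lower at 0.09, and after quantile normalization 17 were lower. Ndufa1, a complex I subunit, rose 2.93-fold. Of 38 fatty acid and cholesterol synthesis genes 7 were higher and 16 lower, where 30.6% of all tested genes were higher and 33.3% lower. As deposited 22 were lower, and in the fit of all 18 libraries 6 were higher and 7 lower. Scd1, the fatty acid desaturase, fell 7.42-fold from 141, 127 and 149 to 17.5, 17.7 and 20.9. Of 31 tested genes of phospholipid and ER membrane synthesis 15 were higher, 5 lower and 11 neither at a median of 0.22, and as deposited 11 were lower. Among those that shape ER sheets and tubules were Ckap4, which rose 8.39-fold from 32.2, 46.8 and 42.5 to 339, 333 and 346, Atl2 (4.13-fold) and Reep5 (2.96-fold).

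Of the protein disposal lists outside the ER, the proteasome had the smallest median change. Its 38 genes had 16 higher and 5 lower at a median of 0.15, a direction that turned to 5 higher and 10 lower as deposited and 6 and 13 after quantile normalization. Psme4, an alternative cap of the proteasome, rose 2.83-fold from 5.25, 6.08 and 6.74 to 17.3, 15.2 and 18.5. Without plasma cell library 3 the higher count was 10. In autophagy 16 of 28 were higher and 3 lower, or 8 and 1 in the fit of all 18 libraries and 1 lower without plasma cell library 3. Atg13, of the initiation complex, rose 4.73-fold from 11.5, 14.2 and 12.2 to 56.9, 63.2 and 58.9, and Tfeb, the transcription factor of lysosome genes, fell 4.57-fold from 48.9, 45.6 and 44.8 to 10.4, 11.1 and 9.03. Of 29 lysosomal genes 15 were higher and 9 lower, the lower share being near the 33.3% of all tested genes. Ctsd and Gusb rose 4.04-fold and 4.61-fold, while Ctsh fell 4.39-fold.

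Among interferon-stimulated genes 24 of 45 were lower, against 33.3% of all tested genes, and 12 higher, near the 30.6% of all. Gbp2, a guanylate-binding protein, fell 43.1-fold from 35.1, 33.1 and 35.6 to 0.5, 1.17 and 0.741, while Isg20, an exonuclease, rose 5.25-fold from 36.4, 41.6 and 43.7 to 200, 242 and 198, and Bst2, which encodes tetherin, 4.32-fold.

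The enzymes of H3K9 methylation, to which the series is devoted, moved little. Of 24 tested, 3 were higher and 9 lower against a background of 33.3% lower, with a median of -0.11, and 5 were higher without plasma cell library 3. Ehmt2, which encodes G9a, was at 21.1, 19.1 and 25.2 against 17.2, 15.8 and 17.4 (-0.35, adjusted p = 0.016). The call for Ehmt2 was lost without activated library 4 (-0.24, adjusted p = 0.062) and in the fit of all 18 libraries (-0.35, adjusted p = 0.217). Its partner Ehmt1 fell 1.66-fold from 13.4, 12.3 and 14.1 to 9.76, 5.47 and 8.78. In Polycomb, Ezh2, the H3K27 methyltransferase, fell 2.17-fold from 53.1 ± 1.58 to 24.5 ± 3.4, while Bmi1 rose 2.12-fold.

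**Figure D5:**
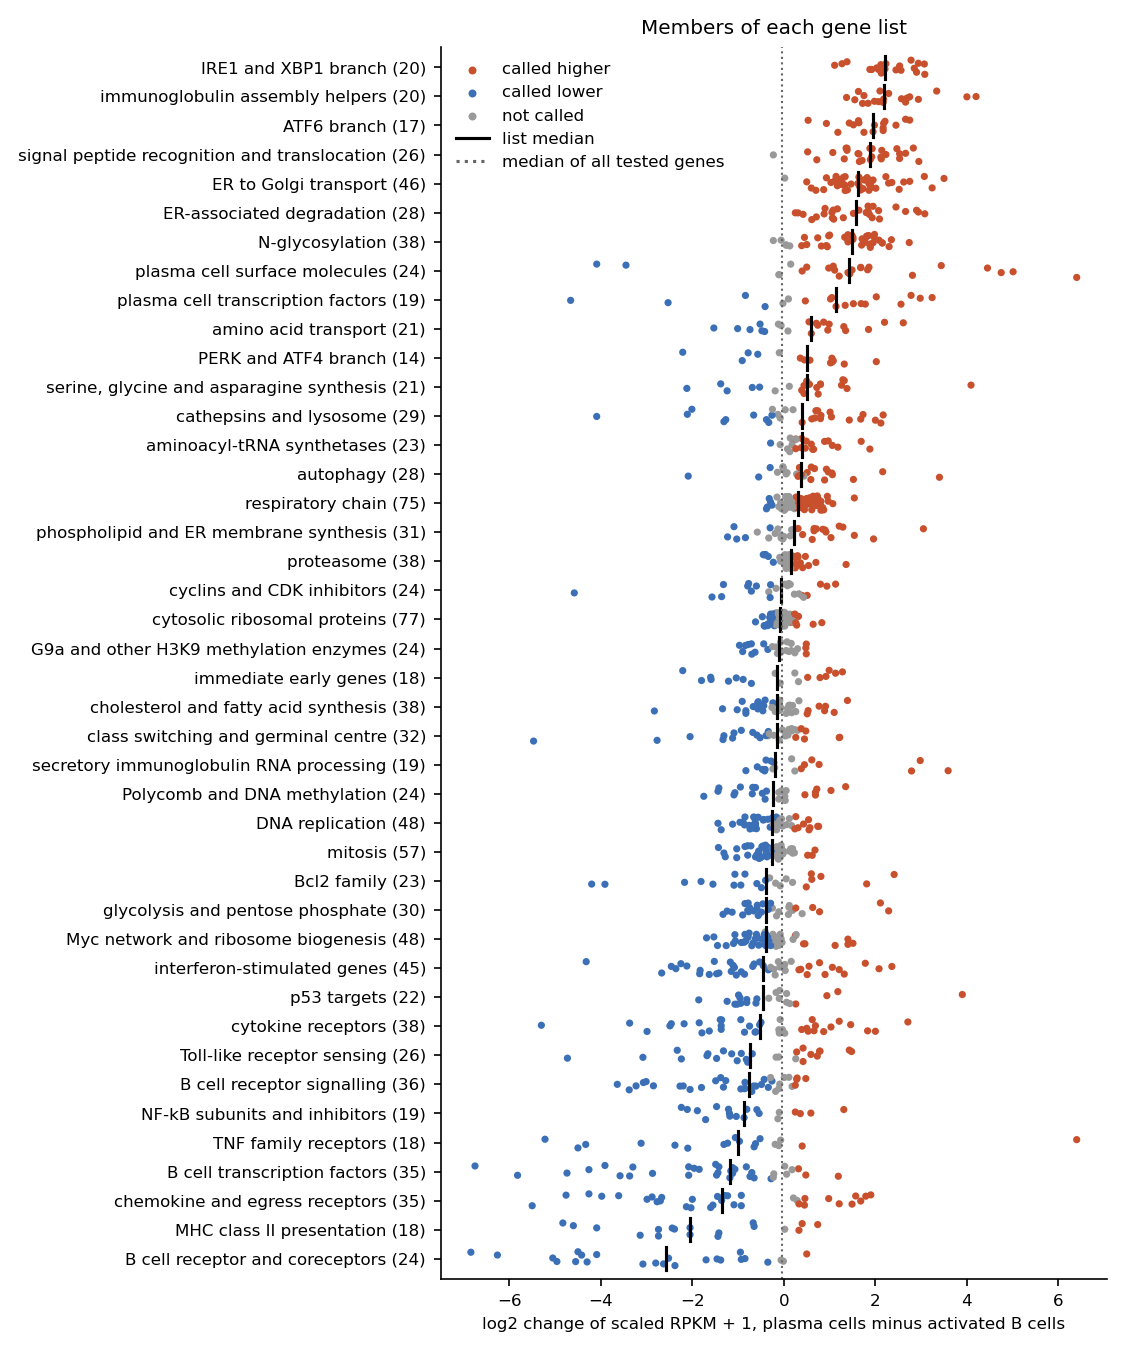
Change of each tested member of 42 gene lists (points, log2 of scaled RPKM + 1, plasma minus activated), coloured by call, with the list median as a bar; numbers in brackets are tested members. The 7 secretory lists lie almost wholly to the right of the median of all genes, and B cell receptor, MHC class II and chemokine receptor lists mostly to the left.

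Levels in naive Ctrl cells place the change on a longer course. These libraries came from uninfected mice and another isolation, so they are given side by side with no test. Ccr7 was at 467 to 694 RPKM in naive, 64 ± 3.19 in activated and 0.448 ± 0.243 in plasma cells, and Klf2 at 577 to 719, 132 ± 29.9 and 5.97 ± 1.49. Pax5 was at 17.1 to 41.4 and Hhex at 89.3 to 133 in naive cells, both above every plasma cell library. Tbx21, at 2.4 to 5.32 in naive cells, was low in naive and in plasma cells and high in activated cells. Creb3l2 (0.455 to 2.48), Eaf2 (2.05 to 4.66) and Derl3 (0.962 to 8.37) were lower in every naive library than in any activated one. Irf4, at 57.7 to 97.8 in naive cells, was lower in every activated library and higher in every plasma cell library. Ddit3 at 106 to 129, Atf4 at 195 to 208 and Cxcr4 at 96.6 to 126 were higher in every naive library than in any library of either sorted cell type.

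The same step was measured in mice that carried floxed G9a. The estimated depth of activated KO library 3 was only 2.66 mega-reads, against 10.78 and 10.67 in activated KO libraries 1 and 4. The difference of the step between genotypes, tested as an interaction over the 12 sorted libraries, was called for 277 of 10391 genes (2.67%), of which 228 had a KO step above the Ctrl step (2.19%) and 49 below (0.472%). The count was 167 without activated Ctrl library 4, 170 without plasma cell Ctrl library 1 and 172 without plasma cell KO library 3, and 25 in the fit of all 18 libraries. Prdm1 was 16.5 ± 3.69 in activated KO and 96.3 ± 4.89 in plasma cell KO, a step of 2.51 against 1.69 in Ctrl (difference 0.82, adjusted p = 0.03). The plasma cell levels of Prdm1 were close, and the activated KO level was lower. S1pr1, the egress receptor, fell from 46.1, 47.7 and 56.4 to 19.4, 15.7 and 18 in Ctrl and was at 21.3 ± 3.62 and 20.6 ± 1 in KO (difference 1.43, adjusted p = 0.0002). Phf11b fell from 120 to 49.3 in Ctrl (change -1.26) and rose from 102 ± 7.17 to 141 ± 11.8 in KO (0.48, difference 1.74, adjusted p = 9.9e-06).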

How the data were processed

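RNA from 1000 cells per library was made into complementary DNA with SMART-seq v4 and into libraries with Nextera XT, per the labels' protocols. The authors deposited RPKM values for 12960 genes, with 0 value columns left unused here. STAR and mm10 are named in the submitters' processing notes, and no source used here gives the gene models, read counter, strand setting or detection rule. A low RPKM therefore rests on an unknown count, and depth was estimated from the steps of low values with gene lengths of GENCODE M21. At the depth kept, 40.1% to 43.0% of values lay within 0.1 of a whole read. That depth was the one with the highest share, so the 20% given by chance at a fixed depth is no fair comparison.

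RPKM values of the 6 libraries were divided by median-of-ratios factors (0.925 to 1.08, over 8897 genes above 1 RPKM) and tested as log2(scaled RPKM + 1) with limma 3.58.1 under R 4.3.3 (lmFit, eBayes with a trend, two-sided), for genes with a mean of 1 RPKM in either cell type and with no replicate block. The genotype difference was an interaction over 12 libraries. Scripts ran under Python 3.11.15 with pandas 2.3.3, numpy 2.4.6 and, for plots, matplotlib 3.10.9, and the fit was tested on simulated data. Positions are from GENCODE M21 on GRCm38, and promoters from RefSeq GRCm38.p6.

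The members and the 42 gene lists were chosen with earlier results of these data known. Named by rule were the 15 largest changes per direction among called genes of 20 RPKM or more. From each list up to 4 such genes with the largest absolute log2 change were named, so their folds are extremes of the list. Also named by rule were 6 genes of the genotype difference, taken by smallest adjusted p, and a set of fixed genes. Other list members, and the levels of 1 and 10 RPKM for gained and lost genes, were chosen after values were seen. Alternatives covered scaling, pseudocount, filter, libraries in the fit, library weights, a replicate block and each library left out. Immunoglobulin constant genes were not analysed here, and some genes named by the rule are not reported here.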

Additional observations from a re-analysis of the deposited data

Results flagged for a closer look

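The step from activated to plasma cells differed between Ctrl and KO in 38 of the genes named here, as tested by the interaction over 12 libraries in limma. Values are the KO step minus the Ctrl step on the log2(scaled RPKM + 1) scale. The genotypes share no library, but the 12 libraries share the estimate of spread. Activated KO library 3 was the shallowest of them, as given above.

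Of 169 tested secretory genes 12 had such a difference, each with the larger rise in KO, and 157 had none called, while 2.19% of all tested genes had the larger step in KO. The genes in this paragraph were chosen by that difference. Jchain differed by 1.36 (adjusted p = 0.00011), going from 122 ± 8.56 to 5717 ± 368 RPKM in KO and from 321 to 5875 in Ctrl. Derl3 differed by 0.97 (adjusted p = 0.00023), going from 47 ± 6.27 to 585 ± 21.2 in KO and from 137 to 874 in Ctrl. The difference was 0.82 for Prdm1, 0.67 for Xbp1, 0.99 for Bhlha15 and 0.92 for Eaf2, and 0.58 for Txndc5, 0.7 for Sec24d, 0.77 for Tram2 and 0.6 for Rrbp1. It was 0.44 for Trp53inp1, 0.65 for Isg20, 0.43 for Stx5a, 0.66 for Lgmn and 0.82 for Ly6c1, a near-identical copy of Ly6c2. Gnl3 (-0.73), Rhpn2 (-1.05) and the carrier gene Slc3a2 (-0.4) rose less in KO.

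Other genes, also chosen by their difference, fell less in KO, some from a lower activated level. Il10ra differed by 1.62, with 4.7 ± 0.737 RPKM in KO and 1.4 in Ctrl plasma cells. Tbx21 differed by 1.46, at 13.7 ± 2.75 in KO and 35.3 in Ctrl activated cells and 0.587 and 0.423 in plasma cells. Activated levels in KO and Ctrl were 79.7 and 169 for Cd72 and 38 and 75.4 for Btg1. Among B cell co-receptors and signalling genes the difference was 1.02 for Siglecg, 1.21 for Cd72, 0.64 for Bank1, 0.77 for Ptpn6, 0.55 for Ly86, 0.63 for Cd180 and 0.92 for Fcrl5. It was 1.69 for Btg1, 0.87 for Klf6, 1.27 for Cd38, 0.81 for Zeb2, 1.25 for Gimap3 and 1.26 for Fgd2. Tmsb4x, an actin-binding peptide gene, differed by 1.43, with 1303 ± 115 in KO and 556 in Ctrl plasma cells. S1pr1 (1.43) and Phf11b (1.74) are described above.

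The largest differences were genes that rose in KO plasma cells from low levels. Serpinb7 differed by 2.73 (adjusted p = 1.6e-05), reaching 46.9 ± 5.61 in KO and 5.57 in Ctrl plasma cells. Cd3e, a T cell receptor component, differed by 2.84 (adjusted p = 1.6e-05), at 8.47 ± 1.46 in KO and 0.0748 in Ctrl plasma cells. The 5 T cell markers summed to 25.7 to 34.3 RPKM in KO and 19.8 to 28 in Ctrl plasma cells, and how far T cells take part in the Cd3e value was not tested.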

How the results depend on the processing

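The counts of 3124 higher and 3393 lower genes stayed within 1.5 times under each alternative, except that 2238 were lower in the fit of all 18 libraries. Without 1 library at a time they were 2853 to 3059 and 3074 to 3264. The balance moved with scaling: 47.9% of calls were higher, against 33.7% as deposited (2330 higher, 4586 lower) and 50.2% after quantile normalization (3325 and 3293). All 2330 higher calls as deposited were also called here. The 277 genotype differences became 25 in the fit of all 18 libraries and 501 with library weights, and 167 to 264 without 1 library at a time. The cause of these shifts was not tested. Of 306 named genes with a test, direction and call held for 284 as deposited, 297 after quantile normalization, 296 in the fit of all 18 libraries, 304 in that of 12, 301 with library weights, 299 to 304 without 1 library at a time, and 306 with a pseudocount of 0.1, with no filter and with the replicate block. As deposited the sign turned for Zbtb20 (-0.08), Cdk1 (-0.05), Rfxap (-0.18), Tcf3 (-0.16), Mpdu1 (-0.08), Alg10b (-0.06), Alg13 (-0.11) and Sec24b (-0.19). After quantile normalization it turned for Il6ra (0.02), Blnk (-0.02) and Tcf3 (-0.07), and with library weights for Rfxap (-0.02) and Fcrla (0.07). Of these genes Blnk was called higher in the main comparison, and the others were not called there. Without 1 library at a time the change ranged from -0.21 to 0.05 for Il6ra, -0.06 to 0.07 for Rfxap, -0.08 to 0.03 for Ikzf3, -0.03 to 0.15 for Alg13, -0.1 to 0.08 for Fcrla and -0.05 to 0.12 for Sec24b. In the fit of all 18 libraries Alg12, Farsb and Cstf1 were not called (adjusted p = 0.178, 0.079 and 0.169), and Canx was not after quantile normalization (0.25, adjusted p = 0.078). Ehmt2 lost its call without activated library 4 and with all 18 libraries, and Ddit3 as deposited, as given beside them. Same-numbered libraries of the cell types deviated together only weakly (r = 0.0921, 0.102 and 0.117 across genes), too little to take the numbers as pairs, although each library correlated best with its own number. With the replicate block 3154 genes were higher and 3428 lower, and 231 differed between genotypes. A planned search of protein sequences for ER retention signals was not run. Genes near 1 RPKM are limited by depth.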

Other observations

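Some abundant RNAs belong to no list above and were picked after the values were known. Of the 25 most abundant RNAs of activated cells 13 were lower in plasma cells, a ranking that favours a fall, and 6 of these are genes of the actin cytoskeleton and its control, for which no list was tested. Actb, the cytoplasmic actin, fell 2.12-fold from 3322, 3160 and 3026 to 1450, 1671 and 1365 RPKM. Tmsb4x, which sequesters actin monomers, fell 5.19-fold from 2887 ± 170 to 556 ± 45.4, and Coro1a, a coronin of leukocytes, 5.32-fold from 1106 ± 22.6 to 208 ± 18.7. Pfn1 fell 2.55-fold, Arhgdib 2.19-fold and Cfl1, a filament-severing factor, 1.64-fold. Ftl1, the ferritin light chain, rose 2.43-fold from 839, 905 and 944 to 2051, 2326 and 2153.

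Mitosis genes carried the letters TTTGAA, the core of the cell cycle element CHR, in 36 of the 48 with a promoter (75%), against 14.6% of all tested genes. The E2F letters TTTGGCGC were in 7 of 40 replication genes and in 1.28% of all tested genes. Both families are known by these elements, so the shares describe the lists and not the comparison.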
